A study of Mus musculus with 12 samples.

Results

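The TRIM family was described here in neutrophils flow sorted from mouse femoral bone marrow as CD11b+ Ly6G+ cells and then kept in culture. Genes were taken as members when their symbol in the deposited table was Trim followed by a digit, with pseudogene names left out, which gave 45 of the 13935 genes in the table. Of these, 15 were listed as interferon-linked from general knowledge and 30 were not. The list took genes known to be raised by interferons in mouse or human cells. It also took the members of a mouse chromosome 7 cluster related to human TRIM5, TRIM6, TRIM22 and TRIM34. All 10 members of that cluster are among the 15, so the list is in large part the cluster. Trim38, also on the interferon-linked list, was not analysed here.

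The libraries formed 4 groups of 3. LysMcre Socs3fl/fl neutrophils, with both Socs3 alleles floxed and a Cre recombinase driven from the Lyz2 locus, were incubated with mouse recombinant G-CSF at 10 ng/ml for 8 h. Socs3fl/fl neutrophils without the Cre, called floxed below, received the same treatment. LysMcre Socs3fl/fl neutrophils and floxed neutrophils were also incubated without G-CSF. All 4 groups therefore carry the floxed allele and were held in RPMI medium with serum, and no group has unmodified Socs3 or cells that were not cultured. G-CSF is the cytokine that drives neutrophil production, and Socs3 is the feedback inhibitor that limits signalling from its receptor through the transcription factor STAT3. The labels name no strain, sex, age or number of mice per library. A p-value here reflects the spread within the 4 groups of 3 libraries, estimated over all groups together, and the libraries of a group may be technical repeats.

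TRIM proteins share an N-terminal arrangement of a RING finger, B-box zinc fingers and a coiled coil, and most act as ubiquitin ligases, enzymes that attach ubiquitin to chosen proteins. The part after the coiled coil differs between members and sets what they bind: a SPRY domain in many antiviral members, NHL repeats in Trim2, Trim3 and Trim32, and chromatin-reading domains in Trim24, Trim28 and Trim33. Many members are made in response to interferon through an interferon-stimulated response element, a site bound by factors of the IRF family. In the mouse a group of SPRY members related to human TRIM5, TRIM6, TRIM22 and TRIM34 lies side by side on chromosome 7 and has expanded by gene duplication.

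The chromosome 7 group comprised 10 members in the order Trim6, Trim34a, Trim5, Trim12a, Trim34b, Trim12c, Trim30b, Trim30c, Trim30a and Trim30d, between position 104218793 and position 104507849 of GRCm38 in the GENCODE M21 annotation. Promoter sequence from RefSeq (GRCm38.p6), from 250 bases before to 50 bases after each annotated start, was matched for 34 of the 45 members. The core of the interferon-stimulated response element was searched on both strands as GAAA followed by any 2 bases and another GAAA. A gene was counted when any of its windows held a match. The core was present in 8 of the 14 interferon-linked members with a promoter entry (57.1%) and in 1 of the 20 other members (5%, Trim2), against 3.99% of all 27025 genes with a promoter entry. The Trim2 match lay in the window of a start 94039 bases from its GENCODE 5′ end. The 8 were Trim21, Trim34a, Trim5, Trim12a, Trim12c, Trim30a, Trim30d and Trim26. A STAT-type palindrome, TTCNNNGAA, which reads the same on both strands, was present in Trim30c, Trim46 and Trim45, that is in 8.82% of the matched members against 9.55% of all genes with a promoter entry. Such a match is a description of the letters in this window.

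The 80 bases before the annotated start are printed for 5 members of the chromosome 7 group, to show the stretches that the copies share around the core and, in Trim6, a neighbour with no match in its window. Of the 8 members with the core, Trim12a, Trim12c, Trim30a and Trim30d rose with G-CSF in both genotypes. Trim5, Trim34a, Trim21 and Trim26 passed the test in neither. Trim30b, Trim25 and Trim30c, the last scarce without G-CSF, also rose in both genotypes and had no match. Of the other interferon-linked members with a promoter entry and no match, Trim6 fell in both genotypes, and Trim34b and Trim56 passed in neither. These calls are not all stable. Without floxed untreated replicate 3, Trim5, Trim34a and Trim21 passed in floxed libraries. With libraries scaled to equal totals, Trim12a did not pass in LysMcre libraries, and Trim21, Trim34a, Trim26 and Trim56 passed there as falls. With the replicate number added to the fit, Trim5 passed in floxed libraries as a rise. Whether the core has a part in the G-CSF response was not tested. Each stretch is given 5′ to 3′ on the strand of its gene, and capitals mark the interferon core, which here lies on the opposite strand and so reads as its complement. The stretches are chr7:104465194-104465273 for Trim30a, chr7:104507850-104507929 for Trim30d, chr7:104353350-104353429 for Trim12c and chr7:104288107-104288186 for Trim5, all on the minus strand, and chr7:104218715-104218794 for Trim6 on the plus strand.
Trim30a: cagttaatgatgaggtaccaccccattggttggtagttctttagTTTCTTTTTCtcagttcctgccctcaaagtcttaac
Trim30d: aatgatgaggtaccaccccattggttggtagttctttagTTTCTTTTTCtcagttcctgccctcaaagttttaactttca
Trim12c: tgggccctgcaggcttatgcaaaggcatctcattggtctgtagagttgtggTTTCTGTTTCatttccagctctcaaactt
Trim5: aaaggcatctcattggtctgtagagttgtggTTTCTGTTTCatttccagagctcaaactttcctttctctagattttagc
Trim6: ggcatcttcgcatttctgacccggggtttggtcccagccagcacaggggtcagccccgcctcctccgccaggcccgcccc

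The Trim30a and Trim30d stretches shared an identical run of 69 bases that includes the core, and the Trim12c and Trim5 stretches shared a run of 49 bases that includes it. The core began 36 bases before the start in Trim30a, 41 in Trim30d, 29 in Trim12c and 49 in Trim5. The longest run that the Trim6 stretch shared with any of the other 4 was 7 bases.

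The libraries held between 19495754 and 26472118 reads assigned to genes. The deposited values are normalised read counts, that is reads divided by one size factor per library, and 3 reads corresponded to between 2.57 and 3.54 normalised counts. All 10 neutrophil markers examined were in the table in every group, and none of the markers of other cells that were in the table was at 0. The summed level of 4 T and NK cell markers was 105 to 125 normalised counts in LysMcre libraries with G-CSF and 136 to 178 in floxed libraries with G-CSF, against 380 to 425 in untreated LysMcre and 315 to 350 in untreated floxed libraries. The summed level of 6 monocyte and macrophage markers was also lower with G-CSF, at 13710.0 to 16712 in LysMcre and 16233 to 20026 in floxed libraries, against 20330.4 to 22852 in untreated LysMcre and 21137 to 22224 in untreated floxed libraries. Within each list the markers did not move together. Among the T and NK cell markers Cd3d alone fell, by 2.98 ± 0.14 (SE) on the log2 scale in LysMcre and 2.23 ± 0.14 in floxed libraries, and the other 3 did not pass the test in either genotype. Among the 6 monocyte and macrophage markers Ly6c2 and Cx3cr1 fell in both genotypes, while Ccr2 and F13a1 rose in both and Csf1r rose in floxed libraries. The part of such cells in the results below was not tested, and in bulk samples fewer cells of a type and less RNA per cell cannot be told apart. The level of Lyz2, the locus that carries the Cre, was 507 to 637 in LysMcre libraries with G-CSF and 5646 to 6602 without it, against 44425 to 49035 and 219608 to 226031 in floxed libraries. Socs3 was 35984 to 38354 in LysMcre libraries with G-CSF against 18533 to 21391 in floxed libraries with G-CSF, and 253 to 313 in LysMcre libraries without G-CSF against 201 to 248 in floxed libraries without it. A gene-level count does not show which part of Socs3 was read, so it does not check the deletion, and LysMcre below means the libraries so labelled.

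One library stood furthest apart within its group. Floxed untreated replicate 3 had the highest value of its 3 libraries for 19 of 19 interferon-stimulated genes on a list of such genes, for 14 of the 15 interferon-linked members and for 11 of the 30 other members. The summed level of those 19 genes was 35091 in that library, against 23247 and 15649 in the other floxed untreated libraries. Floxed G-CSF replicate 1 was the highest of its group for 16 of the 19 genes, with a summed level of 55650 against 39800 and 45435, and for 11 of the 15 interferon-linked members. LysMcre untreated replicate 1 was the highest for 15 of the 19, with 19078 against 14389 and 17564, and for 9 of the 15. Results that rest on these libraries are given with and without them.

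With G-CSF a few members changed strongly. The 4 Trim30 genes rose in both genotypes, with Trim30a, Trim30b and Trim30d between 3.87-fold and 11.2-fold higher and Trim30c too scarce without G-CSF for a firm fold. Trim6 and Trim14 fell, and 6 of the 15 interferon-linked members did not pass the test in either genotype. Differences below are on the log2(normalised count + 1) scale, which understates the change of scarce genes, and ± gives the standard error unless SD is named. Of the 45 members, 13 rose and 10 fell with G-CSF in LysMcre libraries (limma, Benjamini-Hochberg adjusted p under 0.05 over 13915 genes), against a background of 31.1% of all genes higher and 31.6% lower. In floxed libraries 13 members rose and 7 fell, against a background of 24.1% higher and 24.6% lower. In total 51.1% of members passed in LysMcre and 44.4% in floxed libraries, against 62.6% and 48.8% of all genes, so the share of members that changed was below the background in LysMcre libraries and near it in floxed libraries. Among the interferon-linked members 9 of 15 (60%) passed in each genotype, 7 higher and 2 lower, and among the other members 14 of 30 passed in LysMcre (46.7%, 6 higher and 8 lower) and 11 of 30 in floxed libraries (36.7%, 6 higher and 5 lower). With libraries scaled to equal totals, 10 members rose and 18 fell in LysMcre libraries, with 6 higher and 6 lower among the interferon-linked and 4 and 12 among the others. In floxed libraries the same scaling gave 11 higher and 10 lower in all, with 4 higher and 8 lower among the others, for which DESeq2 gave 4 and 5. Equal totals also moved the calls over all genes downward. Of 9179 calls in LysMcre libraries 31.2% were then higher, against 49.6% of 8717 in the main fit. Of 6868 calls in floxed libraries 38.5% were then higher, against 49.5% of 6784.

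**Figure D1:**
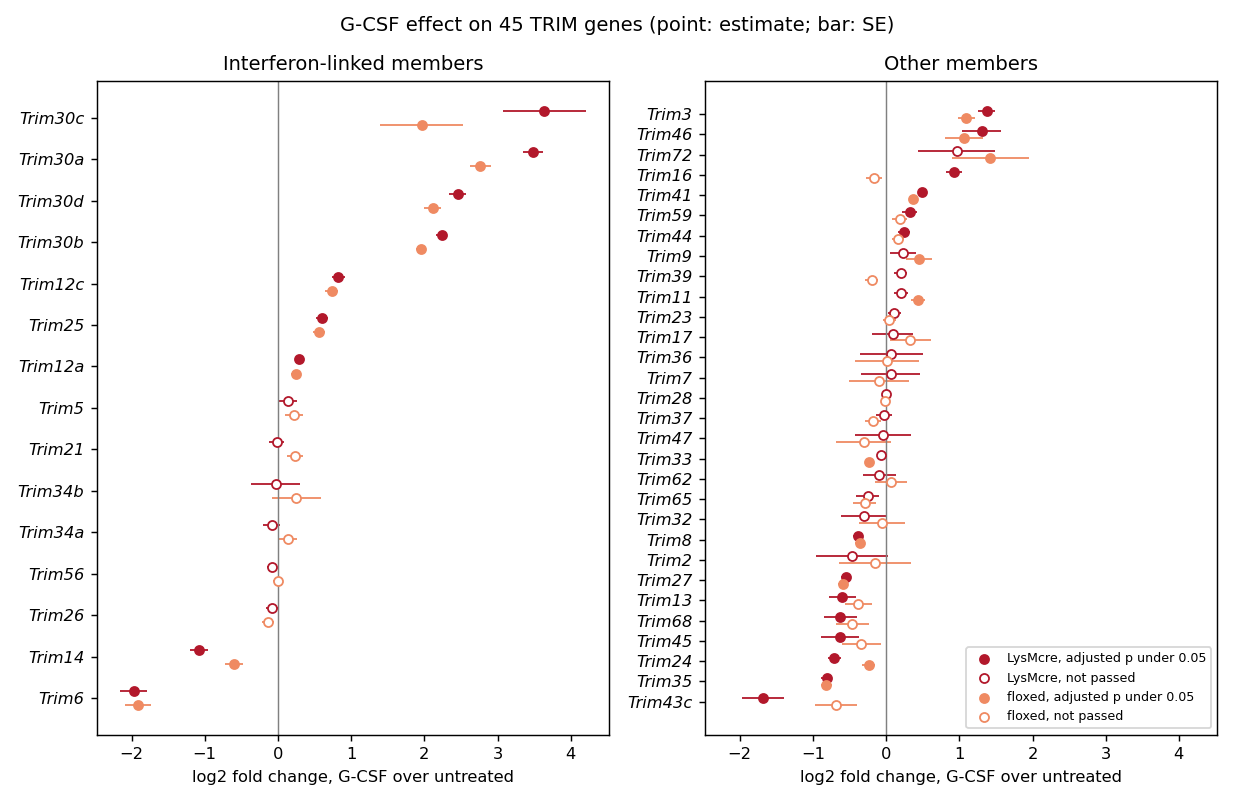
Log2 difference between G-CSF and untreated libraries for each of the 45 members, on the log2(normalised count + 1) scale, with interferon-linked members and other members in separate blocks, LysMcre and floxed libraries as separate points, bars for the standard error, and filled points for adjusted p under 0.05. The Trim30 genes stand at the positive end, from 1.95 to 3.64, and Trim6 at the negative end of the interferon-linked block, at -1.97 in LysMcre and -1.91 in floxed libraries.

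Large changes among the interferon-linked members were mostly those of the Trim30 genes. A change of at least 2-fold that passed the test was found for 6 of 15 interferon-linked members in LysMcre and 5 of 15 in floxed libraries, and for 3 of 30 other members in each genotype. Without the 4 Trim30 genes it was found for 2 of 11 interferon-linked members in LysMcre and 1 of 11 in floxed libraries. Over all genes such a change was found for 24.7% in LysMcre and 14.2% in floxed libraries. The interferon-linked counts include Trim30c, whose untreated means were 2.0 normalised counts in LysMcre and 4.04 in floxed libraries. It passed the filter on low values only through its treated groups. The counts of other members include the scarce Trim43c in LysMcre and Trim72 in floxed libraries. The median log2 difference over the interferon-linked members was 0.14 in LysMcre and 0.24 in floxed libraries, and without the Trim30 genes it was -0.03 and 0.22. Over the other members it was -0.013 in LysMcre and -0.12 in floxed libraries, and over all genes tested -0.00033 and 0.0044. The comparisons in LysMcre and in floxed libraries share no library. The treated and untreated groups did not overlap for 24 of the 45 members in LysMcre and 26 in floxed libraries, against 67.6% and 56.0% of all genes. All 16 members called in both moved the same way, 10 higher and 6 lower, which is 69.6% of the calls in LysMcre and 80% of those in floxed libraries. Over all genes tested the same shares were 70.9% and 91.1%, with 98.9% of the 6180 shared calls in the same direction.

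Trim30a, which in the mouse lowers Toll-like receptor signalling to NF-kappaB by promoting the loss of the adaptors TAB2 and TAB3, is the best studied of the Trim30 genes. In LysMcre libraries it had 18834, 18796 and 19451 normalised counts with G-CSF, against 1927, 1542 and 1656 without it. In floxed libraries it had 12622, 11795 and 12321 with G-CSF, against 1789, 1371 and 2375 without it. Every treated library lay well above every untreated one, and the LysMcre libraries with G-CSF lay above the floxed libraries with G-CSF. The log2 difference was 3.48 ± 0.14 (SE; limma adjusted p = 5.88e-12), or 11.2-fold, in LysMcre libraries, and 2.77 ± 0.14 (limma adjusted p = 2.3e-10), or 6.8-fold, in floxed libraries.

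Trim30b, its neighbour, had 19506, 20918 and 23219 normalised counts with G-CSF in LysMcre libraries, against 4748, 4664 and 4113 without it. The floxed libraries had 19168, 18292 and 19092 with G-CSF, against 4909, 4661 and 5059 without it. The treated and untreated groups were far apart in both genotypes, with log2 differences of 2.23 ± 0.07 in LysMcre and 1.95 ± 0.07 in floxed libraries. Trim30d, whose promoter stretch nearly repeats that of Trim30a, had 4527, 4630.5 and 4223 with G-CSF in LysMcre libraries, against 949.7, 769 and 735 without it. Its counts in floxed libraries were 3991, 3406 and 3923 with G-CSF, against 863, 743 and 1028 without it. The groups did not overlap, and the log2 differences were 2.45 ± 0.11 and 2.11 ± 0.11. The RefSeq start of Trim30b lay 11238 bases from its GENCODE 5′ end, so its promoter window does not cover that end.

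Trim30c was the scarcest of the 4, and it passed the filter on low values only through the treated groups. It had 49.7, 30.7 and 21.5 normalised counts with G-CSF in LysMcre libraries, against 4.21, 0.86 and 0.93 without it. With G-CSF, floxed libraries had 22.7, 13.1 and 11.3, against 1.07, 2.57 and 8.47 without it, so the untreated libraries held from 1 to a few reads each. Its fitted log2 differences, 3.64 ± 0.57 in LysMcre and 1.96 ± 0.57 in floxed libraries, depend on the pseudocount, and the call in floxed libraries was lost without floxed untreated replicate 1 (limma adjusted p = 0.0528, against 0.00976 with it).

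**Figure D2:**
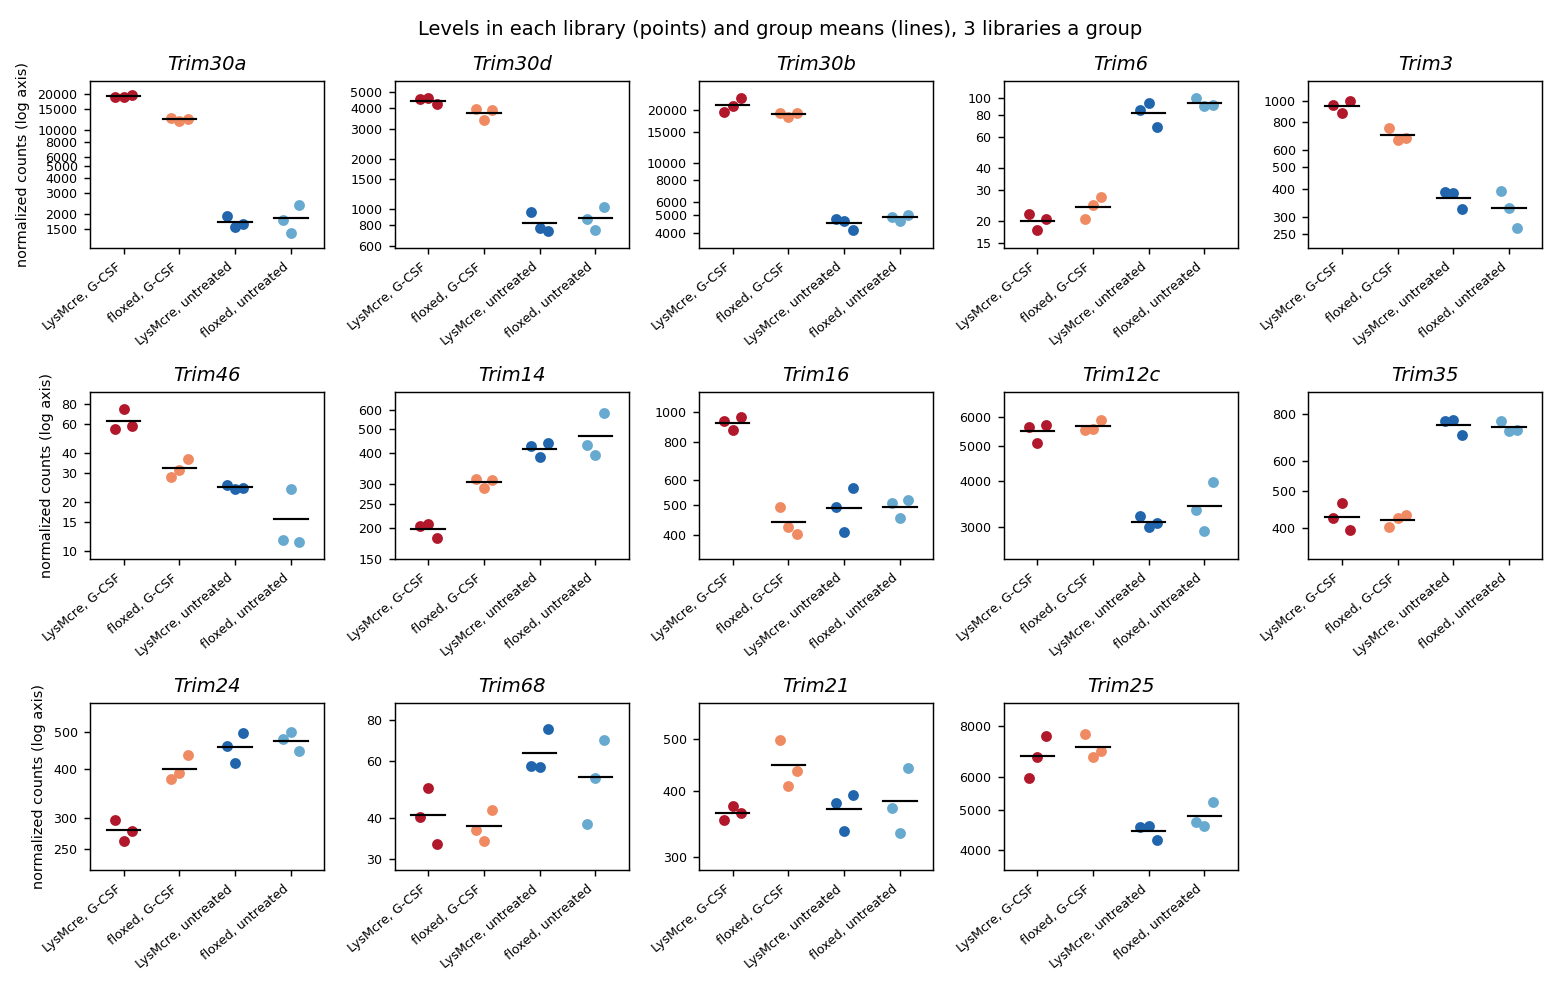
Normalised counts per library on log axes for 14 members, one panel per gene, with the groups from left to right LysMcre with G-CSF, floxed with G-CSF, LysMcre untreated and floxed untreated, and a line at each group mean. Trim30a, Trim30b and Trim30d lie high in both treated groups, Trim6 lies low in both, and Trim16 lies high in LysMcre with G-CSF alone, with 873 to 963 against 402 to 566 in the other 9 libraries.

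Per kilobase of annotated exon, Trim30a ranked first of the 45 members in both G-CSF groups. It ranked 8th in both untreated groups, where Trim11, a member linked to clearance of misfolded proteins, ranked first. Before division by length Trim30b was above Trim30a with G-CSF. Their means were 21214 and 19027 normalised counts in LysMcre and 18851 and 12246 in floxed libraries. The order of these 2 thus depends on the exon lengths used, 7527 bases for Trim30b and 4111 for Trim30a. The summed level of all members per kilobase was 16992 ± 766 in LysMcre and 15253 ± 578 in floxed libraries with G-CSF, against 8157 ± 175 in LysMcre and 8654 ± 495 in floxed libraries without it (SD, n = 3 each). The 4 Trim30 genes made up 50.9% ± 0.69 of that sum in LysMcre with G-CSF, against 15.1% ± 1.00 in untreated LysMcre libraries. In floxed libraries they made up 42.6% ± 0.48 with G-CSF, against 15.4% ± 1.3 without it. The ranges of the treated and untreated groups were far apart. The summed level of the 30 other members was 4080 ± 292 in LysMcre and 4148 ± 211 in floxed libraries with G-CSF, against 3715 ± 47.2 in LysMcre and 3799.8 ± 122 in floxed libraries without it, while that of the Trim30 genes was 8653 ± 277 in LysMcre and 6497 ± 251 in floxed libraries with G-CSF, against 1233 ± 108 in LysMcre and 1333 ± 189 in floxed libraries without it.

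**Figure D3:**
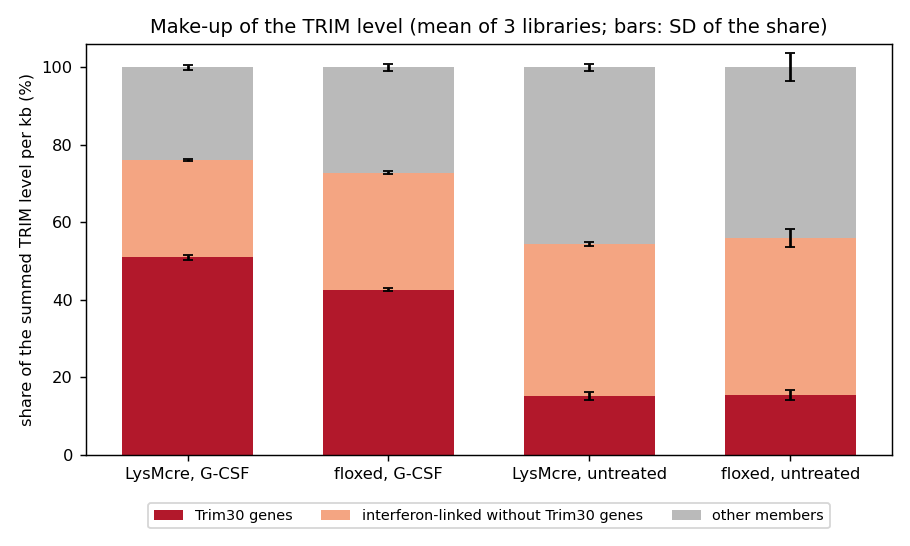
Shares of the summed TRIM level per kilobase of exon taken by the 4 Trim30 genes, the other interferon-linked members and the other members, in percent, as stacked bars of the mean of 3 libraries per group with SD bars. The Trim30 share was 50.9% in LysMcre and 42.6% in floxed libraries with G-CSF, against 15.1% and 15.4% without it.

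The members related to human TRIM5, a factor that blocks retroviral capsids, moved less. Trim12c had 5640.1, 5095 and 5698 normalised counts with G-CSF in LysMcre libraries, against 3213, 3002 and 3071 without it. Counts in floxed libraries were 5509, 5553 and 5879 with G-CSF, against 3337, 2931 and 3992 without it. The groups did not overlap, and the log2 differences were 0.82 ± 0.09 in LysMcre and 0.73 ± 0.09 in floxed libraries. Trim12a rose by less, with log2 differences of 0.29 ± 0.06 and 0.24 ± 0.06. Its call in LysMcre libraries was lost when the libraries were scaled to equal totals (0.024, limma adjusted p = 0.71). Trim5 did not pass the test, at 0.14 ± 0.12 in LysMcre and 0.22 ± 0.12 in floxed libraries, and neither did Trim34a (-0.08 and 0.14, each ± 0.12) or Trim34b (-0.03 and 0.25, each ± 0.33). These genes share sequence: 36.3% of the 50-base stretches of Trim5 transcripts, 33.0% of those of Trim12c and 10.4% of those of Trim12a also occur in another gene, as do 39.8% of those of Trim34a and 56.8% of those of Trim34b. No source used here says how reads were divided among such copies, so their separate values are uncertain. For Trim30a and Trim30d the shares were 5.98% and 7.49%, and for Trim30b and Trim30c they were 0.55% and 0.66%.

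Trim6, which in human cells builds free ubiquitin chains that activate the kinase IKK epsilon, fell more than any other interferon-linked member. It had 22.0, 17.7 and 20.4 normalised counts with G-CSF in LysMcre libraries, against 85.2, 92.8 and 67.8 without it. In floxed libraries it had 20.6, 24.5 and 27.3 with G-CSF, against 99.1, 89.9 and 90.3 without it. All 6 treated libraries lay below all 6 untreated ones, and the log2 differences were -1.97 ± 0.18 and -1.91 ± 0.18, that is 3.93-fold and 3.76-fold lower. Within the chromosome 7 group, 6 of the 10 members rose, 1 fell and 3 did not pass the test, in each genotype, against 31.1% of all genes higher in LysMcre and 24.1% in floxed libraries. The falling member lay at one end and the 4 Trim30 genes at the other, and the 6 that rose include the scarce Trim30c. Without floxed untreated replicate 3 the floxed count was 8 higher and 1 lower.

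**Figure D4:**
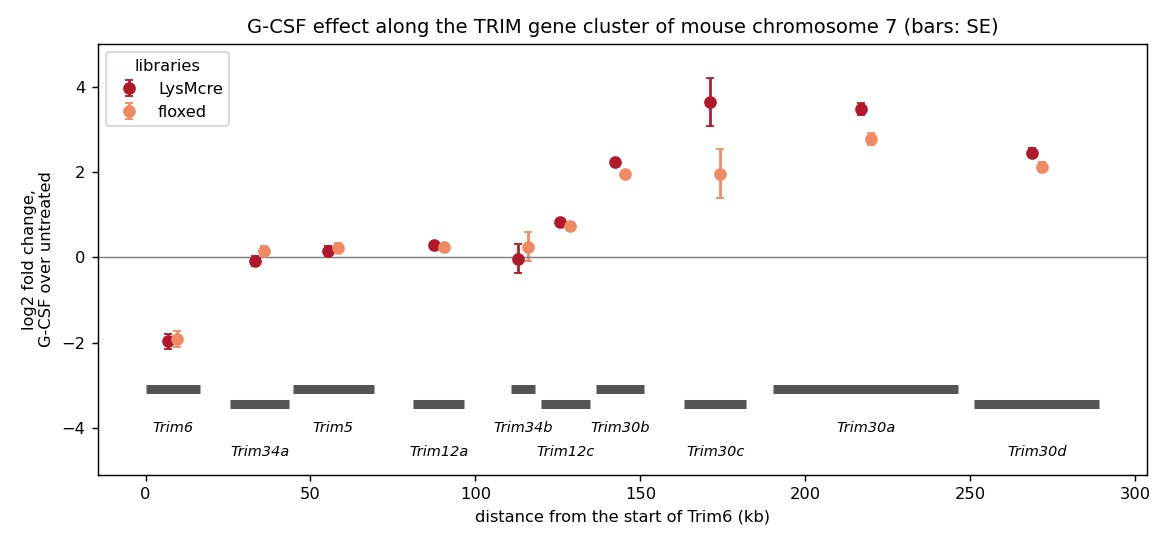
Log2 difference between G-CSF and untreated libraries for the 10 neighbouring members on chromosome 7, drawn in gene order against the distance from the first gene in kilobases, with LysMcre and floxed libraries as separate points, bars for the standard error and grey blocks for the genes. Trim6 at the left end lies at -1.97 and -1.91, and Trim30d at the right end at 2.45 and 2.11.

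Trim14, a member without a RING finger that binds the antiviral adaptor MAVS, had 203, 206 and 183 normalised counts with G-CSF in LysMcre libraries, against 429, 387 and 439 without it. The floxed libraries had 316, 289.8 and 311 with G-CSF, against 434, 393 and 581 without it. The groups did not overlap in either genotype, with log2 differences of -1.08 ± 0.12 in LysMcre and -0.60 ± 0.12 in floxed libraries. Exons of Nans on the opposite strand cover 31.3% of the Trim14 exons, and Nans itself had log2 differences of -0.27 ± 0.12 in LysMcre and -0.28 ± 0.12 in floxed libraries, neither of which passed the test. No source used here says whether the counting used strand.

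Trim25, the ligase that activates the RNA sensor RIG-I, had 5982, 6699 and 7544 normalised counts with G-CSF in LysMcre libraries, against 4528, 4567 and 4228 without it. Its counts in floxed libraries were 7649, 6718 and 6929.7 with G-CSF, against 4671, 4559.8 and 5232 without it. It rose in both genotypes with no overlap, by log2 differences of 0.60 ± 0.08 in LysMcre and 0.56 ± 0.08 in floxed libraries. Trim21, the cytosolic antibody receptor that sends antibody-coated particles to the proteasome, had 353, 374 and 364 with G-CSF in LysMcre libraries, against 379, 336 and 393 without it. With G-CSF, floxed libraries had 497, 409 and 435, against 371, 333 and 441 without it. These groups overlapped in both genotypes, and the log2 differences, -0.02 ± 0.10 and 0.23 ± 0.10, did not pass the test. Trim26 (-0.09 and -0.13, each ± 0.08) and Trim56 (-0.09 and 0.0014, each ± 0.07), both linked to the control of antiviral signalling, did not pass it either.

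Because floxed untreated replicate 3 was high for interferon-stimulated genes, the floxed comparison was repeated without it. Then 10 of the 15 interferon-linked members rose and 2 fell, against 7 and 2 with it, and Trim21, Trim34a and Trim5 were the 3 added. Their log2 differences reached 0.34, 0.30 and 0.35 in that fit, with limma adjusted p of 0.0129, 0.0185 and 0.0264. The median over the interferon-linked members was then 0.35, against 0.24 with all libraries. The Trim30a difference was 2.97 without that library, against 2.77 with it.

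Among the 30 members outside the interferon-linked list, Trim3 rose most clearly in both genotypes. Trim3, an NHL-repeat ligase studied mainly in brain, had 959, 882 and 996 normalised counts with G-CSF in LysMcre libraries, against 386, 384 and 326 without it. Counts in floxed libraries were 752, 664 and 677 with G-CSF, against 393, 329 and 267 without it. The groups were well separated, with log2 differences of 1.37 ± 0.12 and 1.09 ± 0.12. Of the other NHL members, Trim2 and Trim32 did not pass the test in either genotype and were scarce, with group means of 13.6 to 21.1 and of 32.6 to 42.4 normalised counts. Trim46, which organises microtubules at the start of the axon in neurons, had 55.5, 74.3 and 58.0 with G-CSF in LysMcre libraries, against 25.2, 24.1 and 24.1 without it. In floxed libraries it had 28.2, 31.5 and 36.7 with G-CSF, against 11.7, 24.0 and 11.3 without it. It rose in both without overlap, by 1.31 ± 0.26 and 1.06 ± 0.26 on the log2 scale, at a level that gives few reads.

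Trim35 fell in both genotypes. It had 424, 465 and 393 normalised counts with G-CSF in LysMcre libraries, against 771, 771 and 707 without it. The floxed libraries had 402, 424 and 432 with G-CSF, against 769.5, 721 and 727 without it. All treated libraries lay below all untreated ones, and the log2 difference was -0.81 ± 0.07 in LysMcre and -0.82 ± 0.07 in floxed libraries. Trim27, a nuclear and cytosolic ligase first found fused to the RET kinase, fell by 0.55 ± 0.06 and 0.59 ± 0.06 on the log2 scale. Trim8, which was described as a partner of SOCS1, fell by 0.38 ± 0.06 and 0.36 ± 0.06. Trim41, a ligase reported to act on protein kinase C, rose in both, by 0.49 ± 0.05 and 0.36 ± 0.05. These changes were under 2-fold and went past the spread between replicates.

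The chromatin-binding members did not move together. Trim24, a nuclear receptor coregulator, had 296, 262 and 278 normalised counts with G-CSF in LysMcre libraries, against 459.6, 414 and 496 without it. Its counts in floxed libraries were 377, 392 and 434 with G-CSF, against 477, 498 and 445 without it. It fell in both, by 0.71 ± 0.09 in LysMcre and 0.24 ± 0.09 in floxed libraries, and the floxed call (limma adjusted p = 0.0335) was lost in 4 of the 12 fits that each left out 1 library: those without floxed untreated replicate 1, floxed untreated replicate 2, floxed G-CSF replicate 1 and floxed G-CSF replicate 2. Over all alternatives its floxed value ran from -0.33 to -0.20. Trim33, a ligase for SMAD4, fell by 0.23 ± 0.06 in floxed libraries and did not pass the test in LysMcre libraries, at -0.07 ± 0.06. That difference between genotypes, 0.16 ± 0.08, did not pass either (limma adjusted p = 0.205). Trim28, the corepressor that silences retroelements with zinc-finger proteins, did not pass the test either, with log2 differences of -0.0012 ± 0.05 in LysMcre and -0.01 ± 0.05 in floxed libraries and 95% intervals of -0.12 to 0.11 and -0.13 to 0.10.

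Smaller or less stable calls made up the rest. In LysMcre libraries Trim16 rose (0.93 ± 0.11), as did Trim59 (0.32 ± 0.10) and Trim44 (0.24 ± 0.08), while Trim13, an endoplasmic reticulum ligase, fell by 0.60 ± 0.18. With libraries scaled to equal totals, Trim59 was at 0.061 and Trim44 at -0.016, and neither passed. The Trim59 call was also lost without LysMcre untreated replicate 2 or LysMcre G-CSF replicate 1, and the Trim44 call without LysMcre untreated replicate 2, LysMcre untreated replicate 3 or LysMcre G-CSF replicate 3. Trim68, a ligase first tied to the androgen receptor, had 40.5, 49.5 and 33.3 normalised counts with G-CSF in LysMcre libraries, against 57.8, 57.6 and 75.2 without it. With G-CSF, floxed libraries had 36.8, 34.1 and 42.4, against 38.4, 53.1 and 69.6 without it. The groups overlapped in floxed libraries alone, and Trim68 fell in LysMcre libraries (-0.62 ± 0.23, limma adjusted p = 0.0255) and did not pass in floxed libraries (-0.46 ± 0.23, limma adjusted p = 0.108). Its LysMcre call was lost when LysMcre untreated replicate 3, LysMcre G-CSF replicate 1 or LysMcre G-CSF replicate 3 was left out. In floxed libraries Trim11 rose by 0.43 ± 0.10 and Trim9, a neuronal member, by 0.45 ± 0.18. The Trim9 call was lost in 12 of 21 alternatives, edgeR and DESeq2 among them, with adjusted p from 0.0265 to 0.148. Leaving out any one of the floxed G-CSF libraries, floxed untreated replicate 1 or 2, LysMcre untreated replicate 2 or LysMcre G-CSF replicate 2 was enough to lose it.

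The remaining calls came from scarce genes. Trim72, a muscle protein of membrane repair, rose in floxed libraries (1.43 ± 0.53), where its mean without G-CSF was 6.54 normalised counts, and the call was lost with DESeq2, with equal totals and in fits that left out floxed untreated replicate 3 or any one of the floxed G-CSF libraries. Trim43c fell in LysMcre libraries (-1.68 ± 0.29), with means of 7.22 normalised counts with G-CSF and 25.2 without it. Trim45 fell there as well (-0.63 ± 0.26, limma adjusted p = 0.0493), and that call was lost in 13 of 20 alternatives, including 10 of the 12 that leave out 1 library. All 45 members passed the filter on low values, a mean of at least 10 over all libraries, but Trim30c, Trim72, Trim43c and Trim47 did so with a mean under 10 in at least 1 group. Apart from Trim39, described below, the 8 further members that passed the test in neither genotype were Trim7, Trim17, Trim23, Trim36, Trim37, Trim47, Trim62 and Trim65. The most abundant of these were Trim23, which carries an ARF GTPase domain, with group means of 288 to 313 normalised counts, and Trim37, a peroxisomal and centrosomal ligase, with 164 to 186. Trim23 lay at 0.11 ± 0.09 in LysMcre and 0.04 ± 0.09 in floxed libraries, and Trim37 at -0.02 ± 0.11 and -0.18 ± 0.11.

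The second comparison set LysMcre against floxed libraries that had both received G-CSF. Trim16, Trim46 and Trim30a were higher in LysMcre libraries, and Trim14, Trim24 and Trim34a were lower. Of the 45 members, 5 were higher and 6 lower in LysMcre than in floxed libraries with G-CSF, against a background of 17.1% of all genes higher and 18.9% lower, and 24.4% of members passed in total against 36.0% of all genes. The interferon-linked members numbered 1 higher (Trim30a) and 3 lower (Trim14, Trim34a and Trim21), with 11 that did not pass. With libraries scaled to equal totals the interferon-linked members numbered 1 higher and 7 lower and all members 4 higher and 10 lower, and edgeR gave 2 higher and 3 lower among the interferon-linked. Over all genes 28.2% of 5471 calls were higher with equal totals, against 47.5% of 5013 in the main fit. Without floxed G-CSF replicate 1 the interferon-linked members numbered 1 higher and 2 lower, and without floxed untreated replicate 3 they numbered 1 higher and 4 lower. The other members numbered 4 higher (Trim16, Trim46, Trim3 and Trim39) and 3 lower (Trim43c, Trim24 and Trim11). The median log2 difference was -0.105 over the interferon-linked members, 0.026 over the other members and -0.0087 over all genes.

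**Figure D5:**
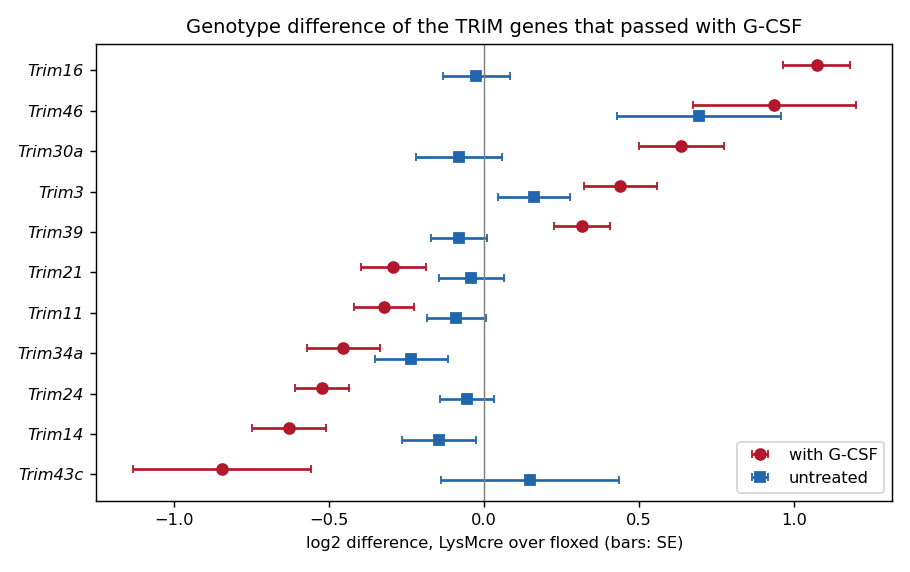
Log2 difference between LysMcre and floxed libraries for the 11 members that passed the test with G-CSF, shown with and without G-CSF, on the log2(normalised count + 1) scale with bars for the standard error. With G-CSF Trim16 (1.07), Trim46 (0.94) and Trim30a (0.64) lie above 0 and Trim14 (-0.63), Trim24 (-0.52) and Trim34a (-0.45) below it, and without G-CSF no member passed the test.

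Trim16, a member that takes part in autophagy of damaged lysosomes and in the handling of oxidised proteins, differed most. It had 933, 873 and 963 normalised counts in LysMcre libraries with G-CSF, against 491, 425 and 402 in floxed libraries with G-CSF. Without G-CSF it had 491, 407 and 566 in LysMcre libraries, against 508, 453 and 519 in floxed libraries. The LysMcre libraries with G-CSF lay above all other libraries, the remaining groups overlapped, and the log2 difference with G-CSF was 1.07 ± 0.11 (limma adjusted p = 1.71e-06), or 2.11-fold. It was the only member of the 45 to differ at least 2-fold and pass, against 5.96% of all genes. Exons of Fbxw10 on the same strand cover 5.19% of the Trim16 exons.

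Trim30a was higher in LysMcre than in floxed libraries with G-CSF by 0.64 ± 0.14 on the log2 scale (limma adjusted p = 0.00191), or 1.55-fold, and its value over all 21 alternatives ran from 0.46 to 0.66 with the call kept in each. The other Trim30 genes did not pass: Trim30b was at 0.17 ± 0.07, Trim30c at 1.04 ± 0.57 and Trim30d at 0.24 ± 0.11. Trim30b and Trim30d had no overlap between the genotypes, which was the case for 14 of the 45 members and for 45.5% of all genes. Trim46 was higher by 0.94 ± 0.26 and Trim3 by 0.44 ± 0.12, and the Trim46 call was lost without LysMcre G-CSF replicate 2 (limma adjusted p = 0.0574).

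Trim14 was lower in LysMcre than in floxed libraries with G-CSF, with the counts given above not overlapping, at a log2 difference of -0.63 ± 0.12 (limma adjusted p = 0.000685). Trim24 was lower by 0.52 ± 0.09, and the 2 genotypes did not overlap. Trim34a had 513, 458 and 504 normalised counts in LysMcre libraries with G-CSF, against 699, 629.5 and 693 in floxed libraries, a log2 difference of -0.45 ± 0.12. Trim34b, with which it shares sequence, was at -0.37 ± 0.33 and did not pass. Trim11 was lower by 0.32 ± 0.10 and Trim21 by 0.29 ± 0.10. The Trim11 call was lost without floxed G-CSF replicate 1 and without LysMcre G-CSF replicate 1, and the Trim21 call, with limma adjusted p = 0.0402, was lost in 7 of 21 alternatives, with values from -0.41 to -0.21. Those were quantile normalisation and the fits without any one of the LysMcre G-CSF libraries, floxed G-CSF replicate 1 or 3, or floxed untreated replicate 1. Trim43c, a mouse member active in the early embryo, was lower by 0.85 ± 0.29, with 5.78, 9.44 and 6.44 normalised counts in LysMcre libraries against 9.75, 15.8 and 16.0 in floxed libraries. It shares 42.1% of its 50-base stretches with other genes, and its call was lost with DESeq2, with quantile normalisation and without floxed G-CSF replicate 2 or 3 or LysMcre G-CSF replicate 1 or 3. Trim39 was higher by 0.32 ± 0.09 with overlapping groups, and its call was lost without LysMcre G-CSF replicate 3, without floxed G-CSF replicate 2 and with equal totals.

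Without G-CSF no member differed between LysMcre and floxed libraries by limma, nor by edgeR or DESeq2 on the recovered reads, against 0.115% of all genes by limma. At an unadjusted p under 0.05 there were 2 members by limma and 2 by edgeR. The groups did not overlap for 3 of the 45 members, against 9.34% of all genes. The difference ran from -0.63 (Trim30c) to 0.69 (Trim46) on the log2 scale. The 95% interval of Trim30a was -0.38 to 0.21, that of Trim16 -0.26 to 0.21 and that of Trim14 -0.40 to 0.11. The median over the interferon-linked members was -0.12 and was -0.02 without floxed untreated replicate 3.

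The difference between the 2 responses was also tested as an interaction. G-CSF moved 4 of the 45 members by a different amount in LysMcre than in floxed libraries, 3 upward (Trim16, Trim30a and Trim39) and 1 downward (Trim24), against a background of 22.4% of all genes, 10.9% upward and 11.5% downward. The difference of the responses was 1.10 ± 0.15 on the log2 scale for Trim16 (limma adjusted p = 9.96e-05), 0.72 ± 0.19 for Trim30a (0.0146), 0.40 ± 0.13 for Trim39 (0.0358) and -0.47 ± 0.12 for Trim24 (0.0124). Trim39, a ligase linked to the apoptosis regulator MOAP1, had 1493, 1713 and 1975 normalised counts with G-CSF in LysMcre libraries, against 1486, 1595 and 1405 without it. Counts in floxed libraries were 1506, 1274 and 1367 with G-CSF, against 1634, 1575 and 1530.3 without it. It passed the test in neither genotype alone, its LysMcre groups overlapped, and its interaction was lost in 10 of 21 alternatives: equal totals, the replicate block, and the fits without floxed untreated replicate 1 or 2, LysMcre untreated replicate 1 or 3, floxed G-CSF replicate 2 or 3, or LysMcre G-CSF replicate 2 or 3. The Trim30a interaction was lost with quantile normalisation (0.52, limma adjusted p = 0.0874). The Trim14 difference of responses was -0.48 ± 0.17 and missed the threshold (limma adjusted p = 0.054), as did that of Trim30b at 0.28 ± 0.10 (limma adjusted p = 0.0537). Without floxed untreated replicate 3 the interaction count was 7, with 4 upward and 3 downward, and Trim14 and Trim34a were then among the interferon-linked calls, both downward. Without LysMcre untreated replicate 1 it was 5, with 4 upward and 1 downward, and 3 of the 4 Trim30 genes passed. Quantile normalisation gave 2 upward and 2 downward, and equal totals 2 upward and 5 downward. Over all genes 23.0% of 3890 interaction calls were upward with equal totals, against 48.6% of 3112 in the main fit.

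Of the TRIM proteins known under other symbols, Mefv, which encodes the inflammasome sensor pyrin, had a log2 difference with G-CSF larger than that of any of the 45 members in both genotypes. It averaged 9874 ± 1003 normalised counts in LysMcre libraries with G-CSF, against 647 ± 73.9 without it (SD, n = 3 each). In floxed libraries it averaged 5311 ± 385 with G-CSF, against 631 ± 71.6 without it. The log2 difference was 3.93 ± 0.10 in LysMcre and 3.07 ± 0.10 in floxed libraries, and the difference of the 2 responses was 0.86 ± 0.14 (limma adjusted p = 0.000371). Mid1, a microtubule-bound ligase, rose in both, by 2.03 ± 0.30 and 0.91 ± 0.30. Pml, which forms nuclear bodies, did not pass in either, at 0.21 ± 0.12 and -0.20 ± 0.12.

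Genes that stand next to the TRIM ligases in antiviral signalling were listed for comparison, and their counts stand against the 62.6% of all genes that passed with G-CSF in LysMcre libraries and the 48.8% in floxed libraries. Of 13 genes that sense nucleic acid or relay that signal, 8 rose and 3 fell with G-CSF in LysMcre libraries, and 7 rose and 2 fell in floxed libraries. Mb21d1, the DNA sensor cGAS, rose by 3.01 ± 0.12 in LysMcre and 1.64 ± 0.12 in floxed libraries and was higher in LysMcre than in floxed libraries with G-CSF by 1.25 ± 0.12. Tmem173, the adaptor STING, was higher in LysMcre by 0.91 ± 0.13 in that comparison. Of 12 interferon receptor and transducer genes, 8 rose and 1 fell in LysMcre libraries, and 7 rose and 2 fell in floxed libraries. Ifngr1, a chain of the interferon gamma receptor, rose by 3.07 ± 0.06 and 2.66 ± 0.06, and Stat2 rose by 1.63 ± 0.10 and 1.21 ± 0.10. With G-CSF, 7 of the 12 were higher and 1 lower in LysMcre than in floxed libraries, against 17.1% and 18.9% of all genes, the lower one being Usp18, which restrains interferon receptor signalling (-1.14 ± 0.32).

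Of 19 interferon-stimulated genes, 10 rose and 5 fell with G-CSF in LysMcre libraries, and 11 rose and 2 fell in floxed libraries, where 13 rose and 2 fell without floxed untreated replicate 3. Of all genes, 31.1% rose and 31.6% fell in LysMcre and 24.1% and 24.6% in floxed libraries. Without LysMcre untreated replicate 1, 10 of the 19 rose and 3 fell in LysMcre libraries. Oas2, an antiviral RNA-sensing enzyme, rose by 3.16 ± 0.24 and 2.22 ± 0.24, and Cmpk2, a mitochondrial nucleotide kinase, fell by 2.91 ± 0.19 and 1.39 ± 0.19. With G-CSF, none of the 19 was higher and 10 were lower in LysMcre than in floxed libraries, among them Ifit3b (-2.21 ± 0.43), Cmpk2 (-1.94 ± 0.19) and Ifit3 (-1.88 ± 0.44), against 17.1% of all genes higher and 18.9% lower. The count lower was 13 without floxed untreated replicate 3 and 9 without floxed G-CSF replicate 1. In that comparison Trim30a was higher and Trim14, Trim34a and Trim21 were lower. Without G-CSF none of the 19 passed, and their median was -0.54, or -0.21 without floxed untreated replicate 3.

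Ubiquitin-conjugating enzymes pass ubiquitin to RING ligases such as the TRIM proteins. The list of 11 genes also holds Uba1, which activates ubiquitin, and the variants Ube2v1 and Ube2v2, so it is not limited to such enzymes. Of the 11, 9 rose and 1 fell with G-CSF in LysMcre libraries, which is 90.9% against 62.6% of all genes. In floxed libraries 5 rose and 1 fell, which at 54.5% is near the 48.8% of all genes. Ube2d3, a general partner of RING ligases, rose by 1.03 ± 0.05 in LysMcre and 0.60 ± 0.05 in floxed libraries and was higher in LysMcre than in floxed libraries with G-CSF by 0.38 ± 0.05. Ube2n, which builds ubiquitin chains that signal rather than mark for degradation, was higher in LysMcre by 0.30 ± 0.06 in that comparison. The difference of the 2 responses passed for both, at 0.43 ± 0.07 for Ube2d3 and 0.34 ± 0.08 for Ube2n.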

How the data were processed

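No source used here names the aligner, the strand setting or the counter. RNA from sorted neutrophils was sequenced, and the submitters' processing notes name the genome build mm10. The authors deposited 1 table of normalised values of 13935 genes, in unit a signal: each value is a read count divided by a size factor per library, and whole reads were recovered for 100.0% of values within 0.01. Depth was 19495754 to 26472118 reads per library. The table also held 2 columns that carry no library's values, and these were not used. The LysMcre G-CSF libraries carry the word Untreated in their titles and were placed by their treatment labels, and LysMcre untreated replicate 2 carries the number 3 in its description.

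From these values, log2(value + 1) was fitted with limma 3.58.1 in R 4.3.3 (trended empirical Bayes, 4 group means, 12 libraries, 8 residual degrees of freedom) for the 13915 genes with a mean of at least 10; 20 genes were left out. Benjamini-Hochberg adjustment ran over all 13915, at 0.05. The normalised table had been expected to allow no count test, and edgeR 4.0.16 and DESeq2 1.42.0 on the recovered reads were run as alternatives beside pseudocounts of 0.5 and 5, no filter, a mean of at least 50, quantile normalisation, equal totals, a replicate block and each library left out. The procedure was tested on simulated data. Replicate numbers were not used to pair the libraries, because no source used here says that they do. Positions and exon lengths came from GENCODE M21, promoters from RefSeq (GRCm38.p6), and 11 members without a promoter entry were not searched. Interferon-linked members were all described. Of the others, named members were, per comparison, up to 6 rises and 6 falls past the test with groups that do not overlap and whose higher group averaged 50 or more, and 4 at most in each further list. Per-library values were given for the 12 members with the largest difference and for Trim30a, Trim21 and Trim25. Members outside this rule (Trim34a, Trim39 and Trim43c by library, and Trim23, Trim37, Trim45 and Trim72) were chosen after their values were seen. One gene of the receptor and transducer list is not reported here. Members, lists and markers were chosen with earlier results of these data known. Intervals rest on the limma standard error and so on the spread between libraries.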

Additional observations from a re-analysis of the deposited data

Results flagged for a closer look

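In 4 members the G-CSF response differed between LysMcre and floxed libraries by a test of the difference itself. The log2 response was larger in LysMcre by 1.10 for Trim16, by 0.72 for Trim30a and by 0.40 for Trim39, and it was lower in LysMcre for Trim24, at -0.47 (limma, adjusted over 13915 genes). Trim16 was higher with G-CSF in 3 of 3 LysMcre libraries than in every untreated one, at 0.93 ± 0.11 (SE), against -0.17 ± 0.11 in floxed libraries. Groups of 3 libraries were too small to test for single outlying libraries. The libraries were only ranked within their groups, as given above, and each was left out in turn.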

How the results depend on the processing

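Of 58 member results with a call, 42 kept it under all 21 alternatives and 16 lost it at least once. Of the 52 results of interferon-linked members without a call, 18 gained one. Gains among the other members were not counted. Of 325 comparisons of a count of calls with its alternative, 313 stayed within 1.5 times. The value of Trim44 with G-CSF in LysMcre libraries turned to -0.016 with equal totals, which moved the median of all genes by -0.26 in that comparison, by -0.12 between genotypes with G-CSF and by -0.17 for the interaction. Equal totals also gave 8 interferon-linked calls between genotypes with G-CSF, against 4, and 7 interaction calls over all members, against 4. Over all genes the calls were 5471 against 5013 between genotypes with G-CSF and 3890 against 3112 in the interaction. The single interferon-linked interaction call (Trim30a) became 2 with edgeR, 2 with DESeq2, 3 with a mean of at least 50, 0 with quantile normalisation and 4 with equal totals, and ran from 1 to 3 when 1 library was left out: 3 without floxed untreated replicate 3 or LysMcre untreated replicate 1, and 2 without floxed untreated replicate 2 or LysMcre G-CSF replicate 1. Over all members the interaction count ran from 3 to 7 with 1 library left out, the 7 being without floxed untreated replicate 3. The causes were not tested. A broader interferon-linked list that adds Trim8, Trim35, Trim41, Trim65 and Trim68 gave 13 calls with G-CSF in LysMcre and 12 in floxed libraries, against 9 in each. The broader list has more members, so these counts do not show a larger share. Of the added members Trim41 rose and Trim8 and Trim35 fell in both genotypes, and Trim68 fell in LysMcre libraries. Over all genes 62.6% passed with G-CSF in LysMcre and 48.8% in floxed libraries. With the replicate block, 24 members passed in LysMcre libraries with G-CSF and 20 in floxed libraries, 12 between genotypes with G-CSF and 3 in the interaction, against 23, 20, 11 and 4. Same-numbered libraries deviated together by more than 0.1 in 4 of 18 pairs, with r from -0.18 to 0.32. Between treated and untreated libraries of the same genotype and number, r was 0.32, 0.20 and 0.06 in floxed libraries. In LysMcre libraries it was 0.21, -0.03 and 0.03. Whether such libraries were paired is not known. Depth limits Trim30c, Trim43c, Trim72 and Trim47, whose lowest group means lie under 10 normalised counts.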
